A study of Mus musculus with 5 samples.

Results

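Granzymes and perforin are the effector proteins of the cytotoxic granule, and 9 genes of this system were followed here across mouse lung type-2 innate lymphoid cells (ILC2s): 7 granzymes (*Gzma*, *Gzmb*, *Gzmc*, *Gzmd*, *Gzme*, *Gzmf* and *Gzmk*), perforin (*Prf1*) and serglycin (*Srgn*). They were taken by symbol from the 27726 genes common to the 5 single-cell libraries of the study, and all 9 were present. The questions asked of them were how high each gene stood in each library, whether the same cells carried several of them, how the cultured libraries of weeks 2 and 3 differed, and whether perforin accompanied the granzymes. All libraries held lung cells of wild-type (WT) C57BL/6 female mice aged 4 to 8 weeks. The study states that 5 mice were pooled per group and gives no number per library. The cells were sorted as Lin- ST2+ CD127+ Thy1.2+ CD45+ with a lineage cocktail that includes CD3, CD4, CD8, TCRβ and NK1.1. The naive group (1 library) came from mice without a tumour. The ta-non-activated ILC2s (tumour-associated, 2 libraries) came from mice carrying TC1 cells, a mouse lung cancer line, under the skin of the flank, and were taken fresh in week 2 or week 3 after implantation. The ta-activated ILC2s (2 libraries, weeks 2 and 3 after implantation) were isolated in the same way and then cultured for 7 days, with TSLP, rmIL-33 and rhIL-2 each added at 10 ng/mL. Time in culture and the added cytokines therefore cannot be told apart, and weeks 2 and 3 are weeks of tumour growth and not of culture. Each week of each group is 1 library of pooled mice, so a difference between weeks has no replicate check.

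Granzymes are serine proteases that cytotoxic lymphocytes store in granules bound to serglycin, a proteoglycan that packs the granule content. On release, perforin forms pores through which granzymes enter a target cell. Granzyme B cleaves after aspartate and activates caspases, granzymes A and K are tryptases, and granzymes C to F are rodent relatives of granzyme B encoded beside it on chromosome 14. ILC2s are better known for type 2 cytokines (*Il5*, *Il13*) and for the factor *Gata3*, while perforin and granzymes are classically the products of NK cells and CD8+ T cells.

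The 5 relatives of the chromosome 14 cluster have similar sequences, so the end of the coding sequence is shown for each. The printed bases are not the only ones by which 3′ reads of these genes can differ. In GRCm38 all of them lie on the minus strand: *Gzmb* at chr14:56258838-56262260, *Gzmc* at chr14:56231441-56234656, *Gzmf* at chr14:56205263-56211417, *Gzmd* at chr14:56129556-56132608 and *Gzme* at chr14:56117626-56120625. The last 60 coding bases, from 5′ to 3′ and with the stop codon at the end, are printed with capitals where a base differs from *Gzmb*.
Gzmb: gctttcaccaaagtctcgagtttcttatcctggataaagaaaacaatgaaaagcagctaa
Gzmc: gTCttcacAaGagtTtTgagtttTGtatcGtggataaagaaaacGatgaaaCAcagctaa
Gzmd: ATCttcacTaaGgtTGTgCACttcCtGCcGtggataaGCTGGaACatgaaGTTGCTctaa
Gzme: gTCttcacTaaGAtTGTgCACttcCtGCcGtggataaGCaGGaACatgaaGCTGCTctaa
Gzmf: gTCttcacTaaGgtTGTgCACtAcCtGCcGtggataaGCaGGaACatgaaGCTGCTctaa
*Gzmc* differed from *Gzmb* at 12 of these 60 positions, *Gzmd* at 28, and *Gzme* and *Gzmf* at 27 each. *Gzmd* and *Gzme* differed from each other at 4. Over the whole coding sequence *Gzmb* and *Gzmc* were 78.0% identical and *Gzmd* and *Gzme* 94.8%. Within the last 500 transcript bases, no run of 60 bases of *Gzma*, *Gzmb*, *Gzmc*, *Gzmk*, *Prf1* or *Srgn* was found in another gene, against 13.6% of the runs of *Gzmd*, 11.6% of *Gzme* and 4.99% of *Gzmf*. The shared runs of *Gzmd* were in *Gzme*, *Gzmf* and *Gzmg*, those of *Gzme* in *Gzmd* and *Gzmn*, and those of *Gzmf* in *Gzmd* and *Gzmg*, so counts of these 3 are uncertain. The run length of 60 was chosen here and is not the read length. *Gzma* (chr13:113093825-113100981, minus strand) and *Gzmk* (chr13:113171608-113225908, minus strand) are neighbours on chromosome 13, and *Prf1* (chr10:61297833-61304680, plus strand) and *Srgn* (chr10:62493833-62527451, minus strand) lie on chromosome 10.

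The upstream sequences of *Gzmb* and *Gzmc* are shown because these were the granzymes with the most counts after culture, and their levels in the week 3 culture differed. The 250 bases before the RefSeq start (GRCm38.p6, minus strand, 5′ to 3′) are printed with motif matches in capitals, *Gzmb* at chr14:56262335-56262584 and *Gzmc* at chr14:56234658-56234907.
Gzmb: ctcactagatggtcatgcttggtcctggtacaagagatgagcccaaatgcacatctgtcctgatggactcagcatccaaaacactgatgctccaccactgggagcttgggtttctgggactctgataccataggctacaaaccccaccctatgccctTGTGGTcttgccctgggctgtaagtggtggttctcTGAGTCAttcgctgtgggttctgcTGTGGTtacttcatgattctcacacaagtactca
Gzmc: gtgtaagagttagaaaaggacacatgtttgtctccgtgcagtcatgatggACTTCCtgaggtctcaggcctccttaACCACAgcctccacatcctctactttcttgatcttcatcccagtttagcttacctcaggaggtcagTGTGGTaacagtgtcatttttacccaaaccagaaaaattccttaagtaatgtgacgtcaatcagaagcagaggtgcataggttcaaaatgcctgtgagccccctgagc
The *Gzmb* window held RUNX (TGTGGT) matches 93 and 34 bases before the start and an AP-1 match (TGANTCA) at 58 bases. These distances hold for the RefSeq start at 56262334, which lies outside the GENCODE gene that reaches to 56262260. The *Gzmc* window held RUNX matches at 174 and 108 bases and an ETS match (GGAAGT) at 200 bases. No match to the STAT (TTCNNNGAA) or T-box (GGTGTGA) pattern was found in either window. Both strands were searched for all 5 patterns. Of 32851 upstream windows of this length 14.05% held the RUNX pattern, 6.75% AP-1, 19.7% ETS, 7.02% STAT and 3.33% T-box. A window counted however many matches it held, so these shares give no background for the repeated RUNX matches. Whether the matches exceed those of other genes was not tested. The windows of *Gzmb* and *Gzmc* were 62.5% identical over 216 aligned bases, and that of *Gzmc* was 84.4% to 85.8% identical to those of *Gzmd*, *Gzme* and *Gzmf*.

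The libraries kept between 1601 and 6389 barcodes and between 9394957 and 61830293 UMIs (unique molecular identifiers, 1 per captured RNA molecule), with medians of 4396 to 16090 UMIs per barcode. The naive and ta-non-activated week 3 libraries were the shallow ones. Any 2 libraries shared at most 8 barcode sequences. The cells were checked against their label. *Gata3* was read in all 5 libraries at 189 to 899 CPM (UMIs of a gene per 1000000 UMIs of the library), with the lowest value in ta-non-activated week 3. In that library 850 barcodes (53.1%) carried at least 2 UMIs of *Cd3d* and *Cd3e* together although CD3 was in the lineage cocktail, against 1.10% to 7.45% in the other 4 libraries. Those barcodes had *Gata3* at 73.8 CPM and *Il1rl1* (ST2) at 1.84 CPM, against 537 and 327 CPM in the rest of the library. Values with and without such CD3 barcodes are given beside several results, though not beside all. No population known to lack granzyme RNA was set apart in these sorts, so the part of free RNA in shares of barcodes with a UMI was not tested.

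*Gzmb* was low in all fresh libraries and high after culture. It stood at 8.92 CPM (95% Poisson interval 7.92 to 10.0) in naive, 2.47 (1.96 to 3.06) in ta-non-activated week 2 and 19.1 (16.4 to 22.1) in ta-non-activated week 3, and at 1303 CPM (1294 to 1313) in ta-activated week 2 and 346 (342 to 351) in ta-activated week 3. Both cultured libraries lay above all 3 fresh ones. Within week 2 the cultured level was 528 times the fresh level (counting interval 426 to 664), and within week 3 it was 18.2 times (15.7 to 21.2). Outside the CD3 barcodes the week 3 levels were 25.6 CPM (19.5 to 32.9) fresh and 351 CPM (347 to 356) cultured. In counts summed per library, fewer *Gzmb* cells and less RNA per cell cannot be told apart, which is why barcodes are counted further on.

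*Gzmc*, the nearest relative of *Gzmb* in this list, was high in 1 of the 5 libraries. It was at 2.47 CPM (1.96 to 3.07) in naive, 1.38 (1.01 to 1.85) in ta-non-activated week 2, 1.49 (0.815 to 2.50) in ta-non-activated week 3, 979 (971 to 987) in ta-activated week 2 and 1.07 (0.826 to 1.36) in ta-activated week 3. The 4 low libraries lay within 1.07 to 2.47 CPM, and the week 2 cultured library stood 707 times (530 to 966) above the fresh library of its week. In week 3 the cultured level was 0.716 times (0.398 to 1.38) the fresh level, an interval that includes no difference. Both intervals take UMIs as independent and are too narrow. A single barcode held 93.5% of the *Gzmc* UMIs of fresh week 2, and a single barcode held 71.4% of those of fresh week 3.

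*Prf1* was scarce everywhere. Its level was 2.56 CPM (2.04 to 3.18) in naive, 0.451 (0.253 to 0.745) in ta-non-activated week 2, 0.639 (0.234 to 1.39) in ta-non-activated week 3, 7.55 (6.86 to 8.30) in ta-activated week 2 and 1.37 (1.10 to 1.70) in ta-activated week 3. The total was 433 UMIs in 254 barcodes of the week 2 culture and 85 UMIs in 76 barcodes of the week 3 culture. Culture went with a 16.7-fold higher level in week 2 (10.0 to 30.1), and in week 3 with 2.15-fold (0.949 to 6.03), which does not exclude an equal level. Outside the CD3 barcodes the week 3 levels were close, at 1.28 CPM (0.264 to 3.74) fresh and 1.37 CPM (1.09 to 1.69) cultured. The naive library lay above ta-activated week 3 and below ta-activated week 2, so cultured and uncultured libraries overlapped for this gene.

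**Figure D1:**
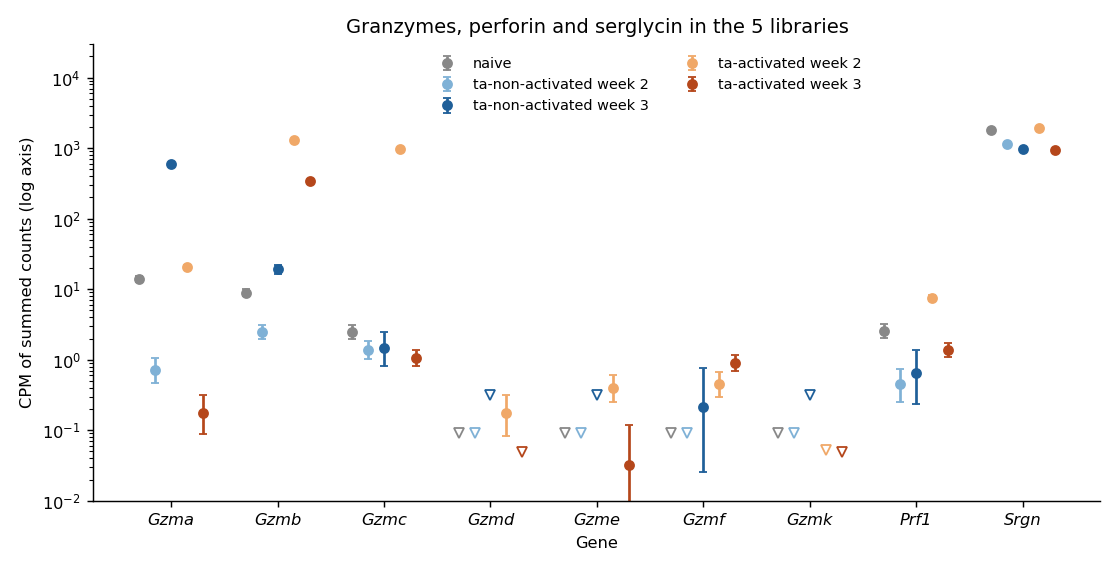
Level of the 9 genes in the 5 libraries, as CPM of summed UMIs on a log axis with 95% Poisson intervals; an open triangle marks a gene with 0 UMIs, drawn at the level 3 counts would give. *Gzmb* stands at 346 CPM or more only in the 2 cultured libraries, *Gzmc* near 979 CPM only in ta-activated week 2, and *Gzma* near 600 CPM only in ta-non-activated week 3.

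*Gzma* had a different distribution. It was at 13.9 CPM (12.6 to 15.2) in naive, 0.722 (0.463 to 1.07) in ta-non-activated week 2, 600 (584 to 615) in ta-non-activated week 3, 20.8 (19.6 to 22.0) in ta-activated week 2 and 0.178 (0.0888 to 0.318) in ta-activated week 3. The single high library was the one in which 53.1% of barcodes carried CD3 transcripts. There 5490 of 5633 *Gzma* UMIs (97.5%) sat in the 850 CD3 barcodes, of which 607 (71.4%) had a *Gzma* UMI. The level was 779 CPM in the CD3 barcodes and 61.0 CPM in the remaining 751, of which 38 (5.06%) had a *Gzma* UMI. CD3 barcodes with a UMI of the proliferation gene *Mki67* read *Gzma* in 161 of 166 (97.0%) at 995 CPM. Those without read it in 446 of 684 (65.2%) at 642 CPM, with median depths of 16268.5 and 5629 UMIs that also differ. None of the other granzymes or *Prf1* was high in those CD3 barcodes: *Gzmb* stood at 16.9 CPM in them and 25.6 CPM in the rest, and *Prf1* had 3 UMIs on either side. Of the 181 barcodes of this library with at least 10 *Gzma* UMIs, 1 had a *Prf1* UMI, none had *Ncr1* (NKp46, an NK and ILC1 receptor) and 180 had *Cd3g*.

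In the other libraries a few barcodes carried most *Gzma*. In naive, 450 UMIs came from 15 barcodes, and the 9 with at least 10 UMIs read *Prf1* in 7, *Gzmb* in 8, *Ncr1* in 7, *Klre1* (an NK receptor) in 8 and *Gata3* in 1, with no *Il1rl1* or *Gzmc* UMI. These 9 barcodes, picked by their *Gzma* UMIs, carried *Prf1* at 764 CPM. The 48 naive barcodes with a *Prf1* UMI, some of them the same, carried it at 272 CPM. In ta-activated week 2, a single barcode held 898 of 1191 *Gzma* UMIs (75.4%). It had 307 *Gzmb*, 4 *Gzmc*, 20 *Gata3*, 23 *Il1rl1*, 127 *Il13* and 33 *Cd3g* UMIs and none of *Prf1*, *Ncr1*, *Eomes*, *Tbx21* or *Nkg7*. *Gzmk*, the chromosome 13 neighbour of *Gzma*, had 0 UMIs in all 5 libraries, where 3 counts would have given 0.0485 to 0.319 CPM.

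The remaining genes of the *Gzmb* cluster were close to the limit of detection. *Gzmd* had 10 UMIs in 1 barcode of ta-activated week 2 and none elsewhere. *Gzme* had 23 UMIs in 2 barcodes of ta-activated week 2 and 2 UMIs in ta-activated week 3, and none in the fresh libraries. *Gzmf* had 2 UMIs in ta-non-activated week 3, 26 UMIs in 14 barcodes of ta-activated week 2 and 56 UMIs in 28 barcodes of ta-activated week 3, which is 0.213, 0.453 and 0.906 CPM. Unlike *Gzmb* and *Gzmc*, *Gzmf* was the higher in the week 3 culture, 2.00-fold (counting interval 1.23 to 3.31). That interval takes UMIs as independent, while 2 barcodes held 50% of them in week 2 and 4 did in week 3. The similar ends of these genes leave the assignment of these few counts uncertain.

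*Srgn*, the granule proteoglycan that many leukocytes express without granzymes, was abundant in every library. It stood at 1795 CPM in naive, 1153 in ta-non-activated week 2, 979 in ta-non-activated week 3, 1957 in ta-activated week 2 and 930 in ta-activated week 3, in 93.5% to 99.2% of barcodes. Cultured and fresh libraries overlapped: the week 2 culture was 1.70 times its fresh library and the week 3 culture 0.950 times (0.929 to 0.971). In ta-non-activated week 3 the CD3 barcodes had 750 CPM and the rest 1667 CPM. Barcodes of ta-activated week 3 outside the CD3 barcodes had 930 CPM, below that rest.

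Cultured and fresh tumour ILC2s were then compared over libraries, 2 ta-activated against 2 ta-non-activated, with edgeR's quasi-likelihood test on summed counts. Of 12643 genes tested none passed an adjusted p of 0.05 in either direction, a percent called of 0, with 2120 at an unadjusted p under 0.05, whereas DESeq2 called 576 of 12397 genes higher (4.65%). *Gzmb* shared the lowest adjusted p of the edgeR test with other genes, 462 in all, of which 320 had a smaller unadjusted p than *Gzmb*. Its log2 fold change was 6.30 (SE 1.35), higher in both cultured libraries than in both fresh ones, with a Benjamini-Hochberg adjusted p of 0.243 in edgeR and 1.69e-07 in DESeq2. The change of *Gzmc* was 8.34 (SE 3.09), with adjusted p of 0.293 in edgeR and 0.0223 in DESeq2, and it rested on the week 2 culture: without that library it was -0.50. *Prf1* had 2.98 (SE 1.01), with edgeR's adjusted p at 0.273 and that of DESeq2 at 0.060. The edgeR values of *Gzmf*, *Gzma* and *Srgn* were 3.22 (SE 1.57, adjusted p = 0.369), -4.77 (SE 3.20, adjusted p = 0.482) and 0.33 (SE 0.51, adjusted p = 0.753), and *Gzmd*, *Gzme* and *Gzmk* did not pass the count filter. Without ta-non-activated week 3, the library with the CD3 barcodes, the *Gzma* value was 3.64. By rank alone, *Gzmb*, *Gzmf* and *Prf1* were higher in both cultured than in both fresh tumour libraries, as were 32.4% of all genes tested, and 20.6% of all genes were lower in both.

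**Figure D2:**
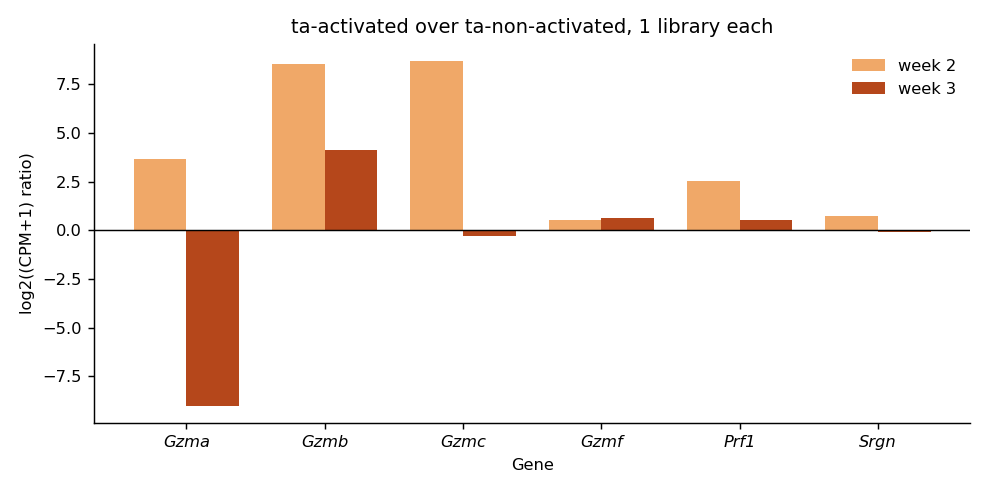
Difference of ta-activated from ta-non-activated in week 2 and in week 3, as the log2 ratio of CPM with 1 CPM added, for the 6 genes that passed the count filter of the test, with 1 library on each side of every point. *Gzmb* lies above 0 in both weeks, while *Gzma* (3.66 and -8.99) and *Gzmc* (8.68 and -0.27) lie on opposite sides of 0.

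The cultured libraries of weeks 2 and 3 were set side by side next. *Gzmb* was 3.76 times higher in week 2 (counting interval 3.71 to 3.82), *Gzmc* 917 times (721 to 1186), *Prf1* 5.49 times (4.34 to 7.01) and *Srgn* 2.10 times (2.08 to 2.13). *Gzma* was 117 times higher (65.0 to 234), a value that rested on 2 barcodes: without the barcode with most *Gzma* UMIs it was 28.7, and without the 2 with most it was 10.8. *Gzmf* went the other way, as given above. Among all 9104 genes with at least 5 CPM in either library, 2.81% were at least 2-fold higher in week 2 and 3.02% at least 2-fold lower. *Gzma*, *Gzmc* and *Prf1* reached 5 CPM in the week 2 library alone and *Gzmf* in neither, so no count or median over members is set against these shares. Barcodes that held at least 20 *Gzmc* UMIs, described further on, were 67 in week 2 and 1 in week 3. Without them in either library the *Gzmb* ratio was 3.25 and the *Gzmc* ratio 9.94. The week 3 barcode left out held 37.9% of the *Gzmc* UMIs of its library, which raises the *Gzmc* ratio. In the fresh tumour libraries *Gzma* and *Gzmb* had the opposite order of weeks, being 830 times (557 to 1297) and 7.72 times (5.91 to 10.2) higher in week 3. Over all barcodes *Srgn* was again higher in week 2, and *Gzmc* and *Prf1* had overlapping intervals. Of all genes 19.9% were at least 2-fold lower and 11.0% at least 2-fold higher in the fresh week 2 library. Outside the CD3 barcodes the week 3 levels were 61.0 CPM for *Gzma* and 25.6 CPM for *Gzmb*, still above week 2. The order of *Srgn* turned there, with 1152 CPM in week 2 and 1667 CPM (1615 to 1720) in week 3. In culture against fresh cells, *Gzma*, *Gzmb*, *Gzmc* and *Prf1* were each at least 2-fold higher in week 2, but all 4 were under 5 CPM in the fresh library and so entered through the cultured one. The *Gzma* ratio of 28.8 fell to 2.66 without the 2 cultured barcodes with most of its UMIs. In week 3 *Gzmb* was higher and *Gzma* lower. The shares of all genes were 16.4% higher and 9.32% lower in week 2, and 19.0% and 16.7% in week 3.

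Counted by barcode, *Gzmb* after culture ran from single molecules to 510 in week 3 and 1402 in week 2. In the week 2 culture 941 barcodes (32.5%) had *Gzmb*: 235 had 1 UMI, 456 had at least 20 and the highest had 1402. In the week 3 culture 601 barcodes (15.7%) had it, 156 with 1 UMI, 228 with at least 20 and a highest count of 510. At a common depth of 2000 UMIs per barcode the shares were 22.3% (20.8 to 23.9) and 10.2% (9.25 to 11.2), against 0.586% in naive and 0.111% and 2.07% in the fresh tumour libraries. The fewer *Gzmb* UMIs of week 3 thus went with fewer *Gzmb* barcodes, and among barcodes with at least 20 UMIs the level was 7748 CPM in week 2, *Gzmc*-rich barcodes left out, and 5269 CPM in week 3. In both cultures the counts were concentrated: 73 barcodes held 50% of the *Gzmb* UMIs in week 2 and 54 did in week 3.

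*Gzmc* was distributed in separate groups. In the week 2 culture 352 barcodes (12.2%) had at least 1 UMI, of which 244 had 1, 38 had 2 to 4, 2 had 5 to 9, 1 had 10 to 19 and 67 had at least 20, with a highest count of 2656. The 1% of barcodes with most *Gzmc* held 71.2% of its UMIs, and 18 barcodes held 50%. In the week 3 culture 22 barcodes had *Gzmc*, 15 of them with 1 UMI, and the single barcode with at least 20 had 25. Few barcodes fell between 5 and 19 UMIs, so the limit of 20 used next, chosen after this distribution had been seen, moves few *Gzmc* barcodes when shifted. In ta-non-activated week 2, 43 of the 46 *Gzmc* UMIs were in 1 barcode that also had 15 *Gzma*, 3 *Gzmb*, 4 *Prf1* and 9 *Ncr1* UMIs.

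**Figure D3:**
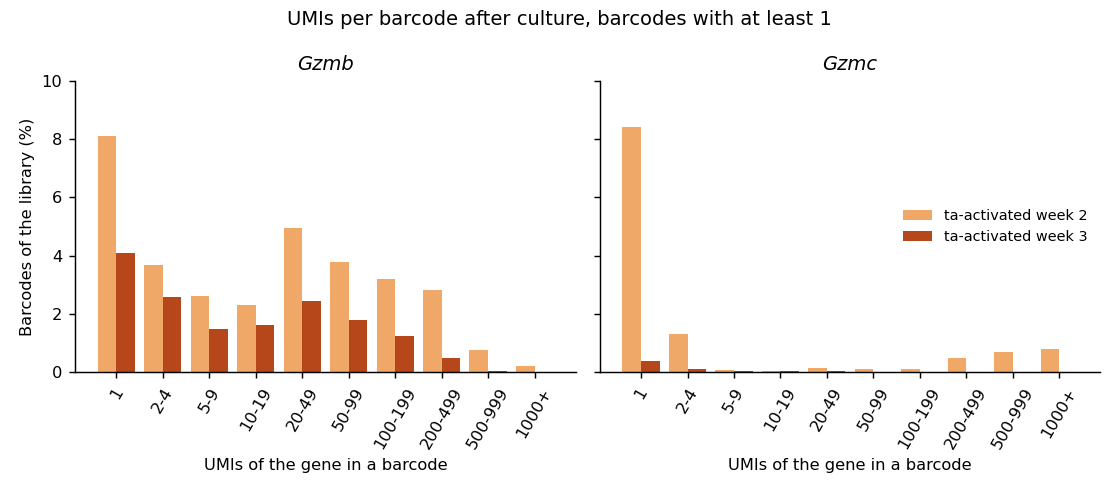
Share of barcodes of each cultured library, in percent, by the number of *Gzmb* or *Gzmc* UMIs they hold, with barcodes at 0 left out. *Gzmb* spreads over the bins up to 1402 UMIs in week 2 and 510 in week 3, whereas *Gzmc* in week 2 has 244 barcodes at 1 UMI, 3 between 5 and 19 and 67 at 20 or more.

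The cultured barcodes were divided by these counts into those with at least 20 *Gzmc* UMIs (*Gzmc*-high), those with at least 20 *Gzmb* and fewer *Gzmc* (*Gzmb*-high), those with 1 to 19 of either, and those with none. In week 2 these were 67 barcodes (2.31%), 407 (14.1%), 649 (22.4%) and 1772 (61.2%), with median depths of 23431, 14797, 15618 and 12532 UMIs, and in week 3 they were 1, 228 (5.97%), 383 (10.0%) and 3210 (84.0%). *Gzmc*-high barcodes were not without *Gzmb*: 61 of 67 had it, at 5789 CPM. Barcodes with no *Gzmb* or *Gzmc* UMI are called granzyme-free or without granzyme below, a name that leaves other granzymes aside. In week 2, 9 of them held 238 *Gzma* UMIs, and in week 3, 4 of them held 10. The classes come from the granzyme counts themselves, and cells of 1 library are no replicates, so the values that follow are descriptions.

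Perforin was highest in the *Gzmc*-high barcodes. In week 2 *Prf1* stood at 52.6 CPM (43.4 to 63.2) in them, in 29 of 67 barcodes, at 8.73 CPM (6.78 to 11.1) in the *Gzmb*-high barcodes, in 47 of 407, at 6.53 CPM (5.30 to 7.97) in those with few granzyme UMIs, and at 4.73 CPM (4.01 to 5.54) in those with none, in 115 of 1772. The *Gzmb*-high class thus lay above the class without granzyme by a margin that its interval does not span, but far below the *Gzmc*-high class. At 2000 UMIs per barcode a *Prf1* UMI was left in 7 of 67 *Gzmc*-high barcodes (10.4%), 5 of 406 *Gzmb*-high (1.23%), 10 of 634 with few granzyme UMIs (1.58%) and 8 of 1715 without granzyme (0.466%), so that the order of the lower 3 classes rests on very few barcodes. In week 3 the values were 3.46 CPM (1.84 to 5.91) in *Gzmb*-high barcodes, 2.23 CPM (1.25 to 3.68) in those with few granzyme UMIs and 1.11 CPM (0.842 to 1.44) in those without granzyme. After thinning *Prf1* was left in 0 of 228, 2 of 378 (0.529%) and 9 of 3107 (0.290%). With limits of 10 or 50 UMIs in place of 20, *Prf1* was at 52.1 or 56.0 CPM in *Gzmc*-high and 8.90 or 8.75 CPM in *Gzmb*-high barcodes.

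The *Gzmc*-high barcodes also carried marker transcripts of NK cells, ILC1s and T cells, which the sort was to leave out. *Ncr1* was at 54.0 CPM in 37 of 67 (55.2%) against 0.13 CPM in *Gzmb*-high barcodes, *Cd160* (a receptor of NK cells, ILC1s and some T cells) was in 63 of 67 at 309 CPM against 0.39 CPM, and *Cd3g* was at 3019 CPM against 74.6. *Cd3e* was low in all classes, at 5.07 CPM, 3.21 CPM and 4.30 CPM in *Gzmc*-high, *Gzmb*-high and granzyme-free barcodes. In the same order *Trac* was at 2.77, 2.95 and 4.03 CPM, and *Cd3d* at 82.6, 11.4 and 8.20 CPM. *Gata3* was read in 39 of 67 *Gzmc*-high barcodes (58.2%) at 183 CPM and in 393 of 407 *Gzmb*-high barcodes (96.6%) at 636 CPM, the latter near the 585 CPM of barcodes without granzyme. *Il1rl1*, also on the ILC2 list, was instead highest in *Gzmc*-high barcodes, at 86.3 CPM against 21.6 in *Gzmb*-high and 49.9 in granzyme-free ones. It was read in 9 of 67, 37 of 407 and 268 of 1772 barcodes of these classes. Summed over the marker lists, *Gzmc*-high, *Gzmb*-high and granzyme-free barcodes had 414, 29.7 and 19.3 CPM of 10 NK or ILC1 genes, 3109, 92.2 and 136 CPM of 7 T cell genes, and 5800, 8585 and 10057 CPM of 10 ILC2 genes. The NK or ILC1 sums stood for different genes: *Cd160* gave 669 of 897 UMIs in *Gzmc*-high barcodes, whereas *Itga2* gave 224 of 231 in *Gzmb*-high and 588 of 628 in granzyme-free barcodes. *Itga2* itself was lowest in *Gzmc*-high barcodes, at 11.5 CPM against 28.8 and 18.1 CPM. The T cell sums were mostly *Cd3g*, with 6543 of 6739, 581 of 718 and 3862 of 4421 UMIs in the 3 classes. *Il13* was at 2436, 2704 and 3690 CPM and *Il5* at 704, 1022 and 1373 CPM in the 3 classes, so type 2 cytokine RNA was read in each class. Fewer *Gzmc*-high barcodes carried it: *Il13* was in 53.7%, 93.9% and 89.1% and *Il5* in 34.3%, 86.5% and 81.9% of barcodes, in the same order. The part of other cell types in the *Gzmc* and *Prf1* counts was not tested.

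**Figure D4:**
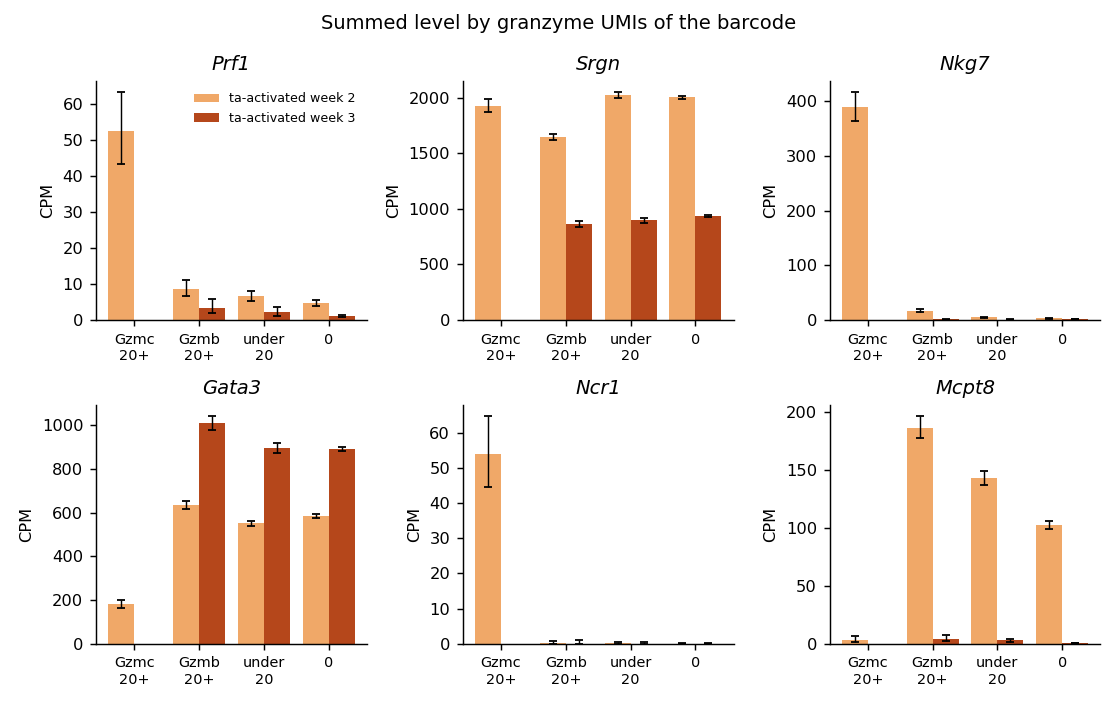
Level in CPM, with 95% Poisson intervals, of *Prf1*, *Srgn*, *Nkg7*, *Gata3*, *Ncr1* and *Mcpt8* in cultured barcodes with at least 20 *Gzmc* UMIs, at least 20 *Gzmb* UMIs, 1 to 19 of either or none; the single week 3 barcode with 20 *Gzmc* UMIs is not drawn. *Prf1*, *Nkg7* and *Ncr1* stand highest in the *Gzmc* class of week 2 (52.6, 389 and 54.0 CPM), where *Gata3* is lowest (183 CPM), and *Srgn* lies between 1644 and 2025 CPM in the 4 classes of week 2.

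Whether the genes were found in the same cells was asked by counting co-detection at 2000 UMIs per barcode. In the week 2 culture 68 of 107 barcodes with *Gzmc* also had *Gzmb* (63.6%, 53.7 to 72.6), against 20.7% (19.2 to 22.3) of those without *Gzmc*. *Prf1* was in 8 of the 107 (7.48%, 3.28 to 14.2) against 0.810% (0.508 to 1.22) of barcodes without *Gzmc*. Among the 630 *Gzmb* barcodes, 14 had *Prf1* (2.22%, 1.22 to 3.70) against 0.730% (0.418 to 1.18) of those without *Gzmb*. Most *Gzmb* barcodes of this culture thus had no *Prf1* UMI at this depth. Without thinning 12.8% of *Gzmb* barcodes and 6.86% of the others had one. Of the 254 barcodes with *Prf1* at full depth, 120 (47.2%) had *Gzmb*.

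In the week 3 culture *Prf1* was in 4.16% (2.71 to 6.08) of *Gzmb* barcodes and 1.58% (1.18 to 2.08) of the others at full depth, and 25 of the 76 *Prf1* barcodes (32.9%) had *Gzmb*. After thinning 11 *Prf1* barcodes were left, 1 among 379 with *Gzmb* (0.264%, 0.00668 to 1.46) and 10 among 3335 without (0.300%), too few to show an order. *Gzmc* was left in 3 barcodes, too few for a share. *Srgn* was as frequent with as without *Gzmb*, at 84.8% and 84.8% of thinned barcodes in week 2 and 77.0% and 76.5% in week 3.

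*Prf1* was also counted by the number of granzymes a barcode carried, here out of all 7. At full depth in the week 2 culture, 6.36% of 1761 barcodes with no granzyme, 10.3% of those with 1 granzyme and 23.2% of 181 with 2 granzymes had *Prf1*, with median depths of 12519, 14646 and 20575 UMIs that rise in the same order. The naive library had 0.587%, 5.63% and 43.8% (7 of 16 barcodes). In the week 3 culture they were 1.60%, 4.17% and 0 of 29 barcodes, and in ta-non-activated week 3 they were 0.321%, 0.315% and 1 of 32 barcodes. The share thus rose up to 2 granzymes in the naive and week 2 cultured libraries, while these last 2 libraries, with few such barcodes, gave no such order. Of the 67 *Gzmc*-high barcodes of the week 2 culture, 61 also had *Gzmb* and 29 had *Prf1*. In naive 8 barcodes had both *Gzma* and *Gzmb*. The shares without these barcodes were not computed, so the rise is not shown for the remaining cells. In ta-non-activated week 2, *Prf1* was in 5 of 1809 barcodes with no granzyme (0.276%), 1 of 10 with 1, 1 of 2 with 2 and 2 of 2 with 3. The CD3 barcodes took part in these patterns: the 106 of the week 2 culture had *Gzmc* at 10504 CPM against 457 CPM in the rest and *Prf1* at 32.9 against 6.16 CPM, and the 476 of naive had *Gzmb* at 53.7 against 4.63 CPM and *Prf1* at 7.42 against 2.10 CPM. Without CD3 barcodes *Gzmb* was found in 50.6% of the *Gzmc* barcodes of the week 2 culture.

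**Figure D5:**
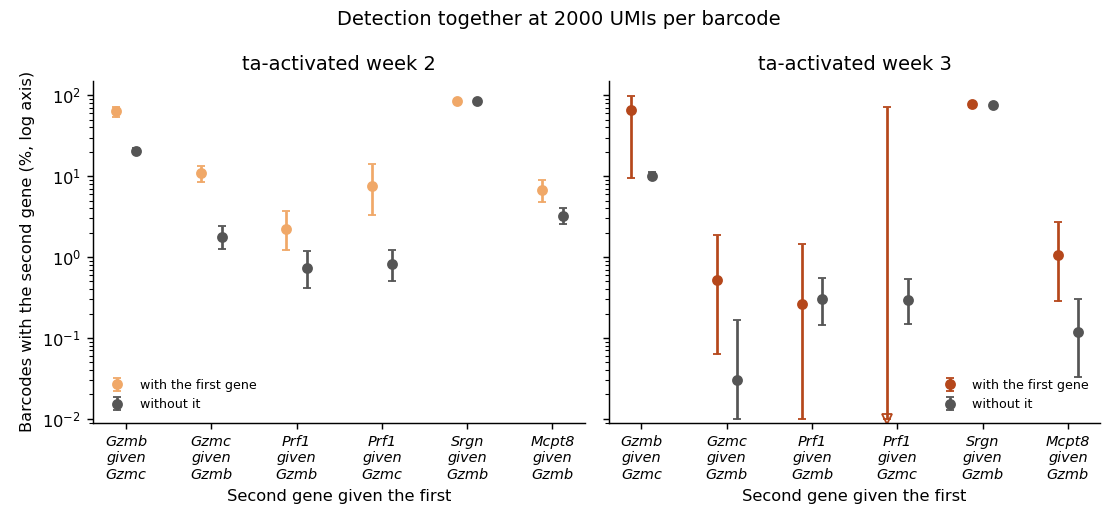
Percent of thinned barcodes of the cultured libraries with the named second gene, among barcodes with and without the first gene, on a log axis with exact 95% intervals; an open triangle stands for 0 and intervals are cut at 0.01%. In week 2 the pairs *Gzmc* with *Gzmb* (63.6% against 20.7%) and *Gzmc* with *Prf1* (7.48% against 0.810%) are apart, and in week 3 *Gzmb* with *Prf1* (0.264% against 0.300%, with 11 *Prf1* barcodes in all) are not.

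A list of 39 other genes of granule biology was examined, of which 38 were among the common genes. None of the 34 that passed the filter was called by edgeR. By rank 11 were higher in both cultured than in both fresh tumour libraries (32.4% of all genes) and 5 lower (20.6%), close to the background in both directions. Between the cultured libraries, *Ctsh*, *Ctsw* and *Nkg7* were at least 2-fold higher in week 2 and *Serpinb6b*, *Tnfsf10* and *Zeb2* at least 2-fold higher in week 3, 3 of 31 each way, where 2.81% and 3.02% of all genes were. The first 3 reached 5 CPM in the week 2 library alone, so their count is not set against that share. *Nkg7*, a granule membrane protein needed for degranulation, was at 55.0 CPM in naive, 4.91 and 81.9 in the fresh libraries of weeks 2 and 3, and 20.1 and 1.21 in the cultured ones. *Ctsw*, a cathepsin of NK and CD8+ T cells, was at 44.6, 14.4, 31.1, 27.7 and 3.87 CPM in the same order. Both were highest in the *Gzmc*-high barcodes of the week 2 culture: *Nkg7* was at 389 CPM there, 17.3 in *Gzmb*-high and 3.23 in granzyme-free barcodes, and *Ctsw* at 436, 13.7 and 10.8 CPM. *Ctsl*, another gene of the list, was at least 2-fold lower in the fresh week 2 library than in fresh week 3 and in cultured week 2.

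Genes that process or hold granzymes in check were present in all libraries. *Ctsc*, the peptidase that activates granzyme precursors, was at 35.9 CPM in naive, 67.5 and 48.7 in the fresh and 40.0 and 23.9 in the cultured libraries. *Cst7*, an inhibitor of cathepsins, was at 19.8 CPM in naive, 15.1 and 7.34 in the fresh and 100 and 70.1 in the cultured libraries, so the cultured libraries were above the other 3. *Serpinb9*, the intracellular inhibitor of granzyme B, was at 36.2 CPM in naive, 35.1 and 7.98 in the fresh and 5.88 and 11.4 in the cultured libraries. In week 2 its *Gzmb*-high barcodes had *Serpinb9* at 6.81 CPM and granzyme-free barcodes at 3.90 CPM, and the *Gzmc*-high ones at 45.2 CPM. *Serpinb6b* was at 58.1 CPM in *Gzmc*-high barcodes, 7.96 in *Gzmb*-high and 4.52 in granzyme-free ones. *Serpinb6a*, from the same list of inhibitors, went the other way, at 105, 215 and 219 CPM in these classes.

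For release, *Rab27a* and *Unc13d*, which dock and prime granules, were at 31.3, 4.45, 22.8, 12.2 and 11.5 CPM and at 21.4, 24.7, 17.1, 26.9 and 25.4 CPM in the naive, fresh week 2, fresh week 3, cultured week 2 and cultured week 3 libraries. *Rab27a* was at 43.8 CPM in *Gzmc*-high, 10.8 in *Gzmb*-high and 11.4 in granzyme-free barcodes, whereas *Unc13d* was at 20.8, 30.3 and 26.4 CPM. *Stx11*, a syntaxin of granule fusion, was at 28.2, 54.1, 6.92, 61.5 and 56.7 CPM in the 5 libraries. The death ligand *Fasl* was at 4.35 CPM in naive and at 0.0174 CPM and 0 in the cultured libraries, while *Tnfsf10* (TRAIL) was at 48.5, 40.7, 12.8, 31.0 and 72.6 CPM. Of the factors that drive granzyme genes in NK and T cells, *Tbx21* was at 9.20 CPM in naive and at most 0.262 CPM elsewhere, and *Eomes* at 0.957 CPM in naive and at most 0.319 elsewhere. In the *Gzmc*-high barcodes of the week 2 culture *Tbx21* was at 4.61 CPM (10 UMIs) and *Eomes* at 2.31 CPM (5 UMIs). The *Gzmb*-high barcodes of that culture had 0 and 0.257 CPM. *Prdm1* (Blimp-1) was at 17.6, 15.6, 5.64, 40.3 and 31.9 CPM and *Id2* at 561, 517, 185, 1110 and 1693 CPM, both higher in the cultured libraries than in the other 3. Other factors of the list differed: *Runx3* was higher, but *Stat5a* and *Bhlhe40* were lower, in both cultured than in both fresh tumour libraries. *Zeb2* was at least 2-fold lower in cultured than in fresh cells in week 2 and at least 2-fold higher in week 3. *Gzmm*, a granzyme encoded outside both clusters, stayed between 0.227 and 0.617 CPM in all libraries.

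Among the chymase and granzyme genes that share the chromosome 14 cluster, *Mcpt8* (chr14:56082166-56085273, minus strand), a basophil protease, was the other gene with many counts. It had 6918 UMIs in 351 barcodes of the week 2 culture (121 CPM), 66 UMIs in 46 barcodes of the week 3 culture (1.07 CPM) and none in the 3 fresh libraries. It did not follow *Gzmc*: it was at 3.23 CPM in *Gzmc*-high barcodes, 187 in *Gzmb*-high and 102 in granzyme-free barcodes of week 2. With *Gzmb* it was in 6.67% of thinned week 2 barcodes (4.85 to 8.90), and without *Gzmb* in 3.24% (2.54 to 4.07). *Mcpt4*, *Tpsb2*, *Ms4a2* and *Fcer1a*, which define mast cells and basophils, were at 0 in that library, and the remaining genes of that list were few, with 22 UMIs of *Gata2*, 11 of *Hdc*, 4 of *Cpa3* and 3 of *Cma1*. *Mcpt1* had 8 UMIs in 1 barcode and *Cma2* 12 UMIs in 8 barcodes of the week 2 culture, *Cma1* had 9 UMIs in naive, and *Gzmg*, *Gzmn*, *Mcpt2*, *Mcpt4* and *Mcpt9* had none.

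The genes whose counts went most closely with *Gzmb* and *Gzmc* over barcodes were listed as a description. The measure was Pearson's r of log(1 + counts per 10000 UMIs of the barcode). What part of r depth still accounts for after this scaling was not tested. Over the 2895 barcodes of the week 2 culture and 11556 genes, *Gzmc* went with *Scin* (r = 0.86), *Kir3dl1* (0.82), *Cd160* (0.82), *Fcer1g* (0.78) and *Cd244* (0.78), and *Gzmb* only weakly with *Scin* (0.25), *Gzmc* (0.24), *Ms4a4b* (0.23), *Avil* (0.23) and *Kir3dl1* (0.22). Without the *Gzmc*-high barcodes the genes nearest to *Gzmb* were *Ms4a4b* (0.24), *Isg20* (0.21), *Nampt* (0.20), *Itgae* (0.20) and *Ms4a6b* (0.18). Over the 3822 barcodes of the week 3 culture they were *Ms4a4b* (0.24), *Itgae* (0.23), *Pglyrp2* (0.20), *Kdm2b* (0.18) and *Ivns1abp* (0.18). *Ms4a4b*, a membrane protein of T cells, and *Itgae*, the integrin CD103, appear in the last 2 lists. Between members in the week 2 culture, r was 0.15 for *Gzmb* with *Prf1*, 0.23 for *Gzmc* with *Prf1* and -0.005 for *Gzmb* with *Srgn*. Without *Gzmc*-high barcodes r was 0.085 for *Gzmb* with *Prf1* and -0.013 for *Gzmc* with *Prf1*. For *Gzmb* with *Gzmc* it was then 0.037, against 0.24 over all barcodes.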

How the data were processed

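RNA of single cells was measured in 5 libraries with the 10x Genomics 3′ v3.1 kit. The deposited matrices hold raw UMI counts, which the authors did not normalize. The matrix headers name Cell Ranger 6.0.0 for naive and 3.0.2 for the other 4, and the submitters' processing notes name Cell Ranger 3.0.2, Seurat 3 and build GRCm38. The annotation used for counting is not given in the sources used here.

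A barcode was kept if it had 200 genes or more and mitochondrial counts under 5%, and genes not found in all 5 matrices were not used here. No doublet caller was run, and an alternative left out the 5% of barcodes with most UMIs. Levels are the summed counts of a library as CPM, and their 95% intervals are exact Poisson intervals. The count is of 3′ tags, so a gene's level is compared between libraries and not with other genes. Ratios have exact conditional binomial intervals. Shares have exact Clopper-Pearson 95% intervals, and for thinned shares barcodes under 2000 UMIs (14 to 242 per library) were left out and the others sampled once to 2000 UMIs. A count of 0 is read against 3 counts. Intervals and floors cover counting error only. The 2-fold rule used log2 ratios of CPM with 1 CPM added, among genes with at least 5 CPM in either library.

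The 2 ta-activated and 2 ta-non-activated libraries were compared with edgeR 4.0.16 in R 4.3.3 (filterByExpr, TMM, quasi-likelihood F test, Benjamini-Hochberg adjustment, threshold 0.05). The code was run beforehand on simulated counts with a fixed spread that was not estimated from these libraries. That run does not show which changes could be found here. The p-values measure the spread between libraries of different weeks. Alternatives were DESeq2 1.42.0, all genes with a count, a replicate block for the week, all 5 libraries, all deposited barcodes, a mitochondrial limit of 10%, barcodes without *Cd3d* and *Cd3e*, each library left out and, added after the data had been seen, barcodes without at least 20 *Gzmc* UMIs. Thinning to 1000 UMIs, no thinning and a minimum of 2 UMIs were run for shares. Python 3.11.15 with numpy 2.4.6, scipy 1.17.1, pandas 2.3.3 and matplotlib 3.10.9 was used.

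The members and gene lists were chosen with earlier results of these data known. All 9 members were named; of the machinery list, genes of at least 20 CPM with a ratio of at least 4 between weeks or groups (at most 12) and the defining gene of each sub-list; of the locus list, every gene with a UMI; and the 5 genes most like *Gzmb* and *Gzmc*, among genes in at least 1% of barcodes. Other genes are cell type markers or were picked with their values in view. Positions are of GENCODE on GRCm38, and upstream sequences of RefSeq (GRCm38.p6), where 9 of 9 members matched.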

Additional observations from a re-analysis of the deposited data

Results flagged for a closer look

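The difference between cultured and fresh tumour ILC2s had opposite signs in weeks 2 and 3 for 3 members, which was not tested, since each week of a group is 1 library. The log2 ratio of CPM with 1 CPM added was 3.66 in week 2 and -8.99 in week 3 for *Gzma*, 8.68 and -0.27 for *Gzmc*, and 0.76 and -0.074 for *Srgn*. Opposite signs were common: of 8814 genes with at least 5 CPM in a library of each week, 2969 (33.7%) had them. Without the 2 cultured week 2 barcodes with most *Gzma* UMIs its week 2 value was 0.76. For *Gzma*, the 850 CD3 barcodes of ta-non-activated week 3 held 97.5% of that library's UMIs. For *Gzmc* the week 3 values were 1.49 and 1.07 CPM, with overlapping intervals. For *Srgn* outside the CD3 barcodes, the week 3 values were 1667 CPM in fresh and 930 CPM in cultured cells.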

How the results depend on the processing

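Of the log2 fold changes of the members, 66 of 72 recomputed values kept their direction and side of the threshold. No member passed the threshold in the main fit, so a value could change side only by passing it. Other results shifted more often. Outside the 95% counting interval of the main value lay 95 of 270 library CPM values, 13 of 22 week ratios and 60 of 225 thinned shares. Of 30 co-detection shares 12 lay outside it and 3 turned their order. The number of genes called by edgeR stayed at 0 under the replicate block and with all 5 libraries, all deposited barcodes, a mitochondrial limit of 10%, all genes with a count, no CD3 barcodes or no *Gzmc*-high barcodes, and DESeq2 called 1041 (576 higher, 465 lower). Leaving out 1 library gave 0 to 1646 calls: 0 without either ta-activated library, 1646 without ta-non-activated week 2 and 513 without ta-non-activated week 3. The lone library of an arm is then assumed to vary like the other group. Over these 4 fits the log2 fold change ran from 5.02 to 8.16 for *Gzmb*, -10.67 to 3.64 for *Gzma*, -0.50 to 9.35 for *Gzmc* and -0.28 to 0.80 for *Srgn*. *Gzmb* was at 6.26 in DESeq2, and *Srgn* at -0.093 without CD3 barcodes. With the replicate block for the week *Gzmb* was at 6.50 (edgeR adjusted p = 0.350). Same-week libraries share the time since implantation, and the labels do not say that they share mice or a day. Deviations of same-week libraries from their group means had a correlation of -0.0477 over 8931 genes. That value cannot decide whether mice or a day were shared, since the fresh libraries of weeks 2 and 3 also differed in CD3 barcodes (1.10% and 53.1%).

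The ratio of week 2 to week 3 culture was, for *Gzmb* and *Gzmc*, 3.50 and 421 without CD3 barcodes, 3.65 and 1580 without the 5% of barcodes with most UMIs, and 3.25 and 9.94 without *Gzmc*-high barcodes. For *Gzmb* it was 4.57 without the 1% of barcodes with most of its UMIs and 3.59 from means over barcodes; *Gzmc* without its top 1% gave no value, as week 3 was at 0. The *Gzma* ratio was 28.7 and 10.8 without the 1 or 2 week 2 barcodes with most of its UMIs, an alternative added after the data had been seen. In the week 2 culture, *Gzmb* was in 48.3% of *Gzmc* barcodes without thinning, 73.8% at a minimum of 2 UMIs and 50.6% without CD3 barcodes, and *Prf1* in 12.8% of *Gzmb* barcodes without thinning and 0.192% at 2 UMIs. In week 3 the order of *Prf1* with and without *Gzmb* turned, with 4.16% of *Gzmb* barcodes without thinning, 1.06% without the 5% of barcodes with most UMIs and 0.268% without CD3 barcodes. The thinned shares of that week, with 11 *Prf1* barcodes, give no order, while *Prf1* CPM was higher in *Gzmb*-high than in granzyme-free barcodes. The cause of these shifts was not tested. Depth limits *Prf1*, *Gzmd*, *Gzme* and *Gzmf*, whose counts are few.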
